A study of Daphnia magna with 15 samples.

Results

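Among the assembled loci of Daphnia magna, 150 stood out by how much their transcript level differed between replicate libraries of the same treatment. The rule summed FPKM (fragments scaled to the length of the transcript and the size of the library) over the transcripts of each locus and took log2(FPKM + 1). It kept loci averaging 5 FPKM or more that span 500 bp or more, and ranked them by the median of their 5 within-group standard deviations (SD). The 150 highest of 13016 eligible loci, from 18877 loci in the table, are the members described here. The members were thus chosen by their within-group SD, and those SDs are given as a description without a test.

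The libraries were made from neonates, whole animals of a laboratory strain of this water flea, 48 to 72 h of age, kept for 24 h without food in 25 mL of medium. Etoposide, a topoisomerase II poison, was given at 300 ng/L, imatinib mesylate, a tyrosine kinase inhibitor, at 2000 ng/L, and cisplatin, which crosslinks DNA, at 10 ng/L. Unexposed animals formed sets named control A and control B, and each of the 5 groups had 3 poly(A) libraries made from 320 ng of total RNA, each from pooled whole animals. The labels tie neither control set to a drug and do not say that replicates were grown apart, so a p-value here reflects only the spread between these libraries, part or all of which may be technical. In a whole animal, fewer cells of a type and less RNA per cell cannot be told apart.

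Daphnia magna is a small freshwater crustacean that reproduces mostly by parthenogenesis, so animals of a laboratory culture are close to genetically uniform. The spread of a locus between replicate libraries holds both the sampling of reads and any real difference between the pools of animals, and for a single locus these cannot be told apart. Loci that are high and low in the same libraries share a pattern, which the correlation of their deviations describes. In the related Daphnia pulex many genes lie in tandem arrays of similar copies, and similar copies can share reads. Gene names are not paired with these loci in the files, and none is given here.

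Control A 1 stood apart from the other libraries. It listed 1375 of all loci and 18 of the 150 members at 0 FPKM, whereas the other 14 libraries listed 71 to 289 loci and 0 to 6 members at 0. FPKM carry no read counts, so the depth is unknown. Loci shorter than 100 bp took 72.6% to 96.1% of a library's FPKM, and the members took 1.04% to 3.17% of the FPKM of the eligible loci. For many results the value without control A 1 is also given, and some others that rest on it are given by library.

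The median SD of the members ran from 1.26 to 3.09 with a median of 1.47 on the log2(FPKM + 1) scale, against a median of 0.189 for the 12866 other eligible loci. By group, the median SD over members was 1.66 in control A, 1.29 with etoposide, 1.51 with imatinib, 1.40 in control B and 0.915 with cisplatin. The same medians over the other eligible loci were 0.340, 0.257, 0.191, 0.132 and 0.123. A member did not need to vary in every group: 32 members lay in the top 5% of SDs in all 5 groups, 65 in 4 groups and 53 in 3 groups. At the threshold, XLOC_018685 and XLOC_005532 were the last inside with median SDs of 1.257 and 1.256. XLOC_009128 and XLOC_003358 were the first outside at 1.255 each, so the edge is not a gap.

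XLOC_016724 (scaffold02928, positions 14661 to 15712) had the largest median SD, 3.09, and was also among the 3 members with the highest mean level, 741 FPKM. It had 611, 2690 and 789 FPKM in control A, 14.3, 445 and 1192 with etoposide and 636, 465 and 1375 with imatinib. In control B it had 10.3, 707 and 234 FPKM, and with cisplatin 6.94, 991 and 955. One library was low by more than an order of magnitude with etoposide, in control B and with cisplatin, while control A and imatinib had no such library. The eligible loci whose deviations were most like those of XLOC_016724 over the 15 libraries were XLOC_007059 (r = 0.968), XLOC_002139 (r = 0.964) and XLOC_005474 (r = 0.957), and all 3 were members.

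The other loci with the largest median SDs had lower levels. XLOC_012360 (scaffold02071, 12094 to 20581; median SD 2.89) reached 54.0 FPKM in etoposide 2 while etoposide 1 and 3 had 0.183 and 0.643. It reached 98.7 FPKM in imatinib 3 with 1.11 and 2.79 in imatinib 1 and 2, and 46.1 in control B 2 with 0.615 and 0.358 in control B 1 and 3. XLOC_005670 (scaffold01213, 37793 to 38820; 2.501) and XLOC_007061 (scaffold01391, 29514 to 30876; 2.47) were highest in the same libraries as XLOC_012360 in these 3 groups. XLOC_005670 reached 65.1 FPKM in etoposide 2, 143 in imatinib 3 and 73.4 in control B 2, and XLOC_007061 reached 180, 235 and 146 FPKM. XLOC_006933 (scaffold01371, 16294 to 16902; 2.51) followed another pattern, with 124 FPKM in control A 2, 115 in imatinib 2 and 70.4 in control B 1, while etoposide 2 had 0.288 and control A 1 was listed at 0.

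The members did rise and fall together, but not as 1 block. Deviations from the group mean were compared for all 11175 pairs of members over the 15 libraries, which leave 10 free values once the group means are removed. The median Pearson r was 0.244, with quartiles of -0.07 and 0.517, and 25.7% of pairs were above 0.5 while 3.96% were below -0.5. Over the other eligible loci the median r was 0.00045, with 12.7% of pairs above 0.5 and 11.8% below -0.5. Pairs share libraries and loci and are not independent, so no p is given. Without control A 1 the median r of the members was 0.200.

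**Figure D1:**
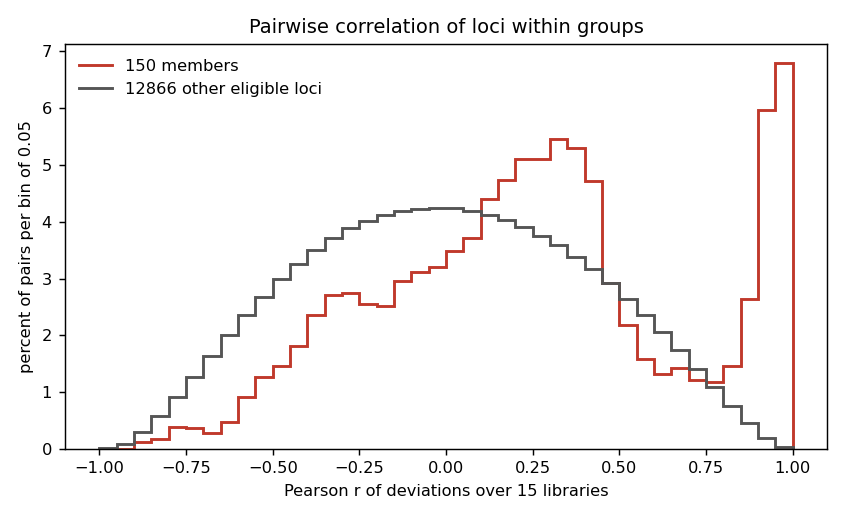
Distribution of Pearson r between the within-group deviations of pairs of loci over 15 libraries, with r on the x axis and the percent of pairs per bin of 0.05 on the y axis, for the 150 members (red) and the 12866 other eligible loci (grey). The members' curve has a peak above 0.85 and a broad hump near 0.3, while the other loci spread symmetrically around 0.

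A first principal component held 41.6% of the members' within-group variance, with each member scaled to the same length, and the first 3 together held 77.7%. For the other eligible loci these shares were 29.3% and 60.9%. Without control A 1 the first component of the members held 45.3%. The joint movement was not particular to the 150. The next 150 loci by median SD had a median r of 0.227, 28.1% of pairs above 0.5 and 40.1% of variance on the first component. Within single groups the median r between members, over 3 libraries, was 0.738 in control A (control A 1 included), 0.481 in control B, 0.387 with imatinib, 0.280 with cisplatin and 0.195 with etoposide.

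Libraries differed in how many members they held above the group mean. In control A, 121 of the 150 members were above it in library 2 and 34 and 49 in libraries 1 and 3. In control B, 122 were above it in library 1, 70 in library 2 and 36 in library 3. With imatinib the counts were 26, 65 and 105 in libraries 1 to 3, with etoposide 47, 83 and 102, and with cisplatin 100, 109 and 51. The median deviation of the other eligible loci stayed between -0.018 and 0.024 in all 15 libraries, so in the values as deposited the bulk of the loci did not shift with the members. Whether the libraries had been scaled to each other is not given, and scaling could hold this median steady. A shift of the bulk before any such scaling was not tested. Members' median deviations ran from -1.19 in control A 1 to 1.57 in control A 2.

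Grouped by average linkage on 1 - r with the tree parted at 0.5, 140 members fell into 6 modules of at least 5 members and 10 members into none. The modules held 58, 33, 18, 18, 7 and 6 members, and their median r between members was 0.938, 0.722, 0.765, 0.921, 0.710 and 0.704. These modules were built from the same deviations and are a description. When any 1 of the 15 libraries was left out there were 5 or 6 modules, and 89.7% to 100% of the pairs that shared a module still shared one.

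**Figure D2:**
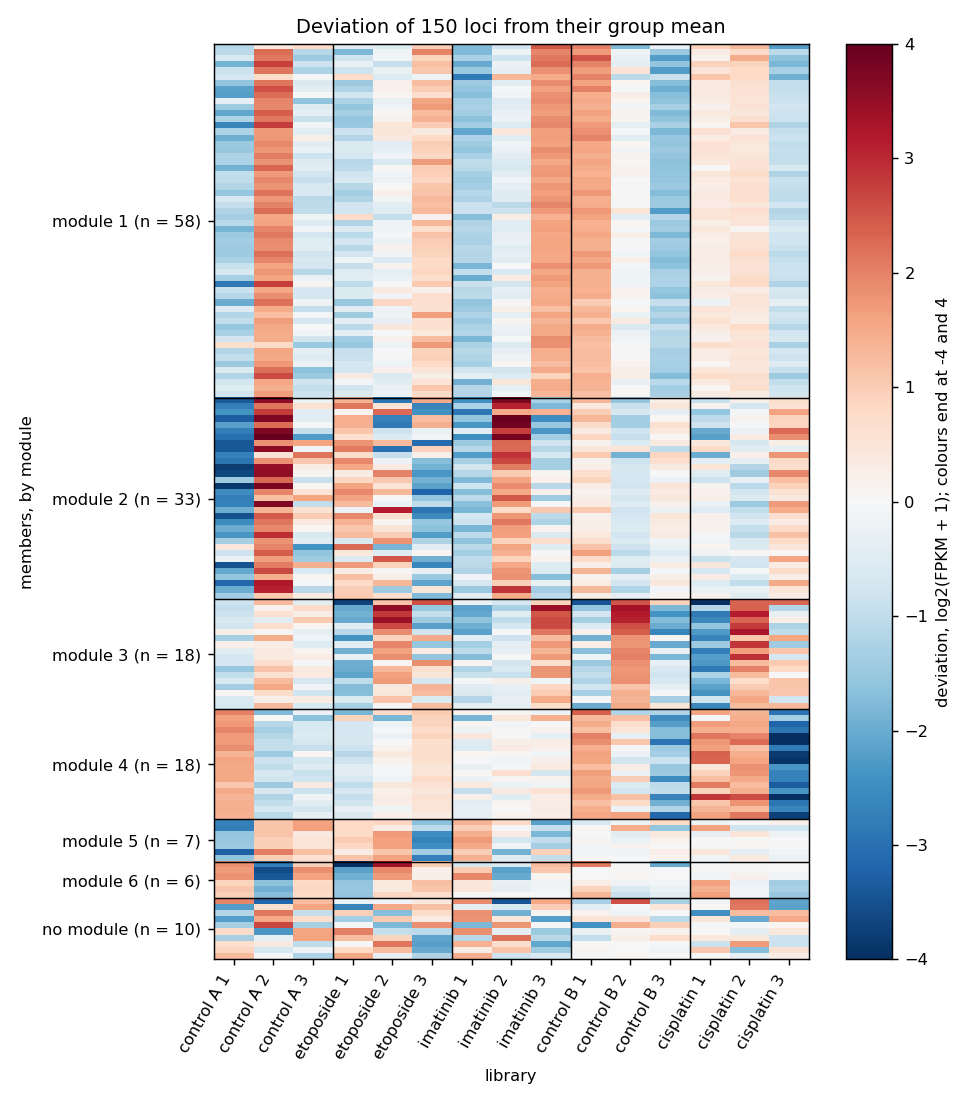
Deviation of each of the 150 members from its group mean on the log2(FPKM + 1) scale (colour, ending at -4 and 4), with members as rows ordered by module and the 15 libraries as columns in their 5 groups. Module 1 (58 members) shows nearly the same column pattern in every row, with control A 2, imatinib 3 and control B 1 high, and module 4 (18 members) shows cisplatin 3 and control B 3 low.

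Module 1 was the largest and the tightest, and no pair of its 58 members had an r under 0.523. All 58 members were highest in imatinib 3 among the imatinib libraries and in control B 1 among the control B libraries. In control A, 57 of 58 were highest in library 2, and with etoposide 52 of 58 were highest in library 3. All 58 were lowest in cisplatin 3. The median FPKM of the module was 50.1 in control A 2 against 4.68 and 7.03 in libraries 1 and 3, and 51.2 in control B 1 against 16.2 and 5.47 in libraries 2 and 3. The 58 members lay on 47 scaffolds, and 294 other eligible loci (2.29%) also had r above 0.8 with the module's mean, so the pattern runs past the members.

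The members most like the rest of module 1 were XLOC_003532 (scaffold00961, 1444 to 2600; mean r 0.951) and XLOC_001540 (scaffold00617, 118 to 3313). XLOC_003532 had 15.6, 93.6 and 21.9 FPKM in control A, 16.2, 29.8 and 60.1 with etoposide and 31.0, 62.4 and 194.5 with imatinib. It had 102.0, 41.7 and 16.4 FPKM in control B and 70.2, 80.2 and 31.1 with cisplatin. All 5 groups overlapped at this locus, and in every group the highest library was more than 2-fold above the lowest. XLOC_001540 had 10.2, 105.7 and 19.6 FPKM in control A and 93.9, 33.6 and 12.5 in control B.

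Module 2 had 33 members, of which 84.8% had a single transcript. In control A, 31 of 33 were highest in library 2 and 30 were lowest in library 1, where 10 were listed at 0. With imatinib 32 were highest in library 2, with etoposide 25 in library 1 and with cisplatin 29 in library 3. In control B 32 were lowest in library 2. The median FPKM of the module was 0.697, 78.8 and 10.5 in control A 1 to 3, and 98.8, 49.1 and 95.8 in control B 1 to 3. Control B was thus both higher and less spread than control A in this module, with a mean log2 level of 6.30 ± 0.714 against 3.64 ± 2.49 (SD, n = 3).

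XLOC_005607 (scaffold01209, 189047 to 191362; mean r 0.803) and XLOC_005534 (scaffold01203, 8912 to 9905; mean r 0.801) were the members most like the rest of module 2. XLOC_005607 had 17.2, 470.6 and 136.8 FPKM in control A, 288, 118 and 37.1 with etoposide and 49.3, 395 and 38.3 with imatinib. It had 884, 494 and 970 FPKM in control B and 756, 469 and 847 with cisplatin, so its spread lay in the first 3 groups. XLOC_005534 was listed at 0 in control A 1 and had 199.6 FPKM in control A 2 and 14.6 in control A 3.

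Module 3 had 18 members and held 4 of the 5 loci with the largest median SD. All 18 were highest in control B 2, and all 18 were lowest in cisplatin 1. With imatinib 17 were highest in library 3, with cisplatin 14 in library 2 and in control A 14 in library 2, while with etoposide 15 were lowest in library 1. The median FPKM of the module was 5.96, 72.6 and 6.17 in control B and 3.65, 77.9 and 19.99 with cisplatin. Control A had the smallest spread, with medians of 46.4, 105 and 68.9 FPKM. Here 55 other eligible loci (0.427%) had r above 0.8 with the module's mean, fewer than for the other modules.

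XLOC_002146 (scaffold00793, 26094 to 29220; mean r 0.827) and XLOC_000815 (scaffold00307, 453 to 4787; mean r 0.820) were the members most like the rest of module 3. XLOC_002146 had 10.2, 69.5 and 39.9 FPKM in control A, 3.07, 39.9 and 24.4 with etoposide and 10.5, 16.5 and 89.8 with imatinib. It had 3.02, 28.7 and 4.76 FPKM in control B and 0.453, 40.3 and 16.9 with cisplatin. One control B library was high and one cisplatin library was near 0. XLOC_000815 had 8.70, 120 and 24.4 FPKM in control B and 4.32, 116 and 76.9 with cisplatin.

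Module 4 had 18 members with the highest levels, a median of 162 FPKM over members' means. All 18 were highest in control A 1 and in etoposide 3, and all 18 were lowest in cisplatin 3, while 17 were highest in control B 1 and 17 lowest in control B 3. The median FPKM of the module was 494, 86.2 and 115 in the control A libraries and 12.8, 6.78 and 0.682 in those of control B. With cisplatin it was 85.0, 63.1 and 0.548. In the 3 imatinib libraries it was 157, 247 and 296, so the module hardly varied there, with an SD of its mean log2 level of 0.217. Control A 1, where the module was highest, was also the library with the most loci at 0. Etoposide 3 had the most within its group too, with 289 loci at 0 against 94 and 71. Control B 3 and cisplatin 3, where the module was lowest, had the most within their groups, with 177 against 119 and 115 and with 228 against 140 and 124. The part of these differences in the module's pattern was not tested.

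XLOC_012020 (scaffold02018, 12986 to 21646; mean r 0.929) and XLOC_001023 (scaffold00402, 2641 to 3394; mean r 0.927) were the members most like the rest of module 4. XLOC_012020 had 140.5, 13.6 and 23.4 FPKM in control A, 39.8, 61.8 and 107.9 with etoposide and 53.2, 63.5 and 69.1 with imatinib. It had 11.1, 6.55 and 0.626 FPKM in control B and 26.7, 26.5 and 0.350 with cisplatin. Each of the last 2 groups had a library near 0. XLOC_001023 had 237, 51.8 and 50.8 FPKM in control A and 23.4, 21.8 and 0.544 with cisplatin. The members with the highest mean levels of all 150, XLOC_017161 at 774.5 FPKM and XLOC_007125 at 749 FPKM, were in this module. XLOC_007125 (scaffold01399, 15723 to 17699) had 2468 FPKM in control A 1 and was listed at 0 in cisplatin 3.

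Modules 5 and 6 were small. All 7 members of module 5 were lowest in control A 1 and in etoposide 3, and 6 of 7 were lowest in imatinib 3, which are the libraries with the most loci at 0 in their groups. The mean log2 level of the module was 2.17, 5.48 and 5.22 in control A 1, 2 and 3. The part of the loci at 0 in this pattern was not tested. In control B and with cisplatin the module's mean log2 level had an SD of 0.0968 and 0.186, so the module moved as a whole in the other 3 groups. XLOC_002240 (scaffold00809, 46862 to 51059), plotted after its values were seen, had 9.16, 52.9 and 39.3 FPKM in control A and 9.48, 17.6 and 0.071 with etoposide. All 6 members of module 6 were lowest in control A 2 and in etoposide 1. XLOC_016275 (scaffold02810, 25063 to 25668), also plotted after its values were seen, had 230, 27.9 and 193 FPKM in control A and 91.8, 346 and 570 with etoposide.

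**Figure D3:**
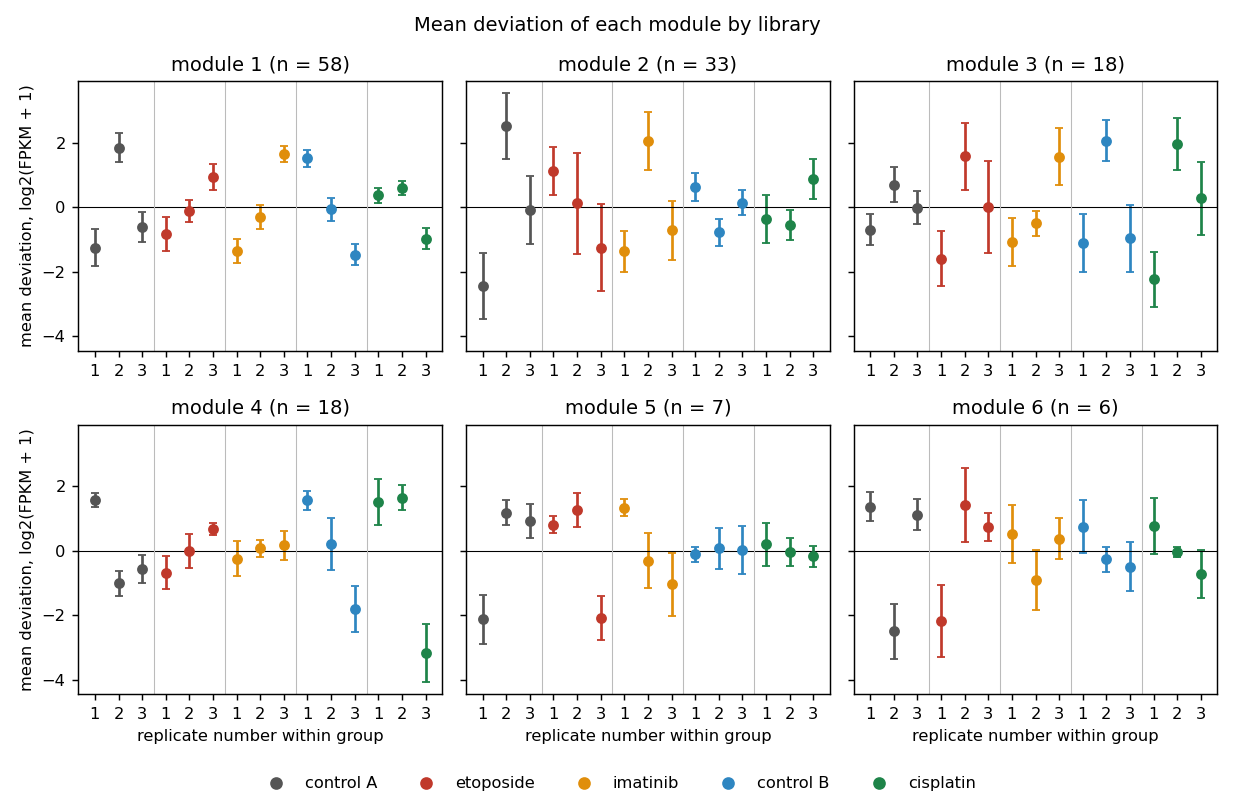
Mean deviation of each module's members from the group mean on the log2(FPKM + 1) scale (points; bars show the SD over the module's members) in each of the 15 libraries, numbered within their group on the x axis, with colours for the 5 groups. No group orders its 3 libraries alike in all 6 modules: control A 1 is at -2.45 in module 2 and at 1.57 in module 4.

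The modules did not simply mirror each other. The r between module means over the 15 libraries was -0.73 for modules 2 and 6, which moved in opposite directions, 0.50 for modules 4 and 6, 0.49 for modules 2 and 5 and -0.45 for modules 2 and 4. The other pairs of modules lay between -0.34 and 0.38. Module 1, the largest, had r from -0.12 to 0.38 with the other 5.

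**Figure D4:**
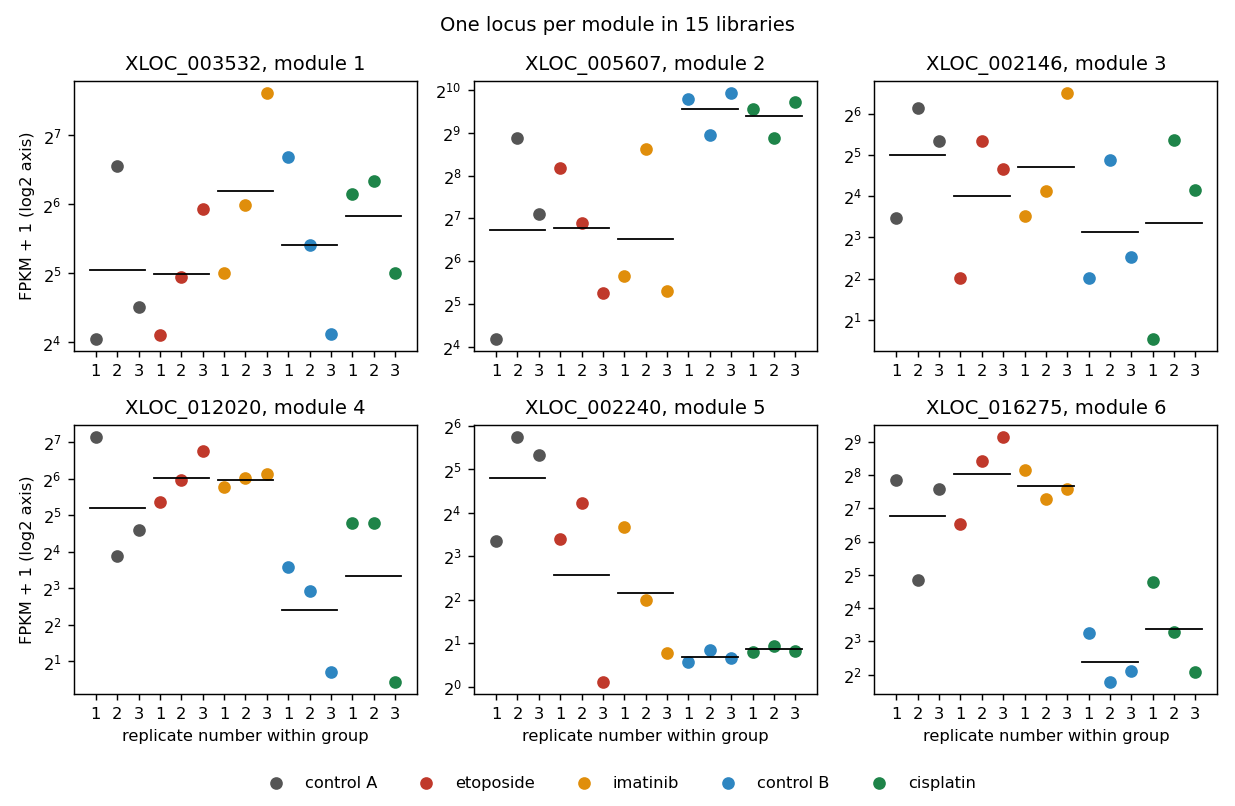
FPKM + 1 on a log2 axis in the 15 libraries, numbered within their group on the x axis, for 1 locus of each module (XLOC_003532, XLOC_005607, XLOC_002146, XLOC_012020, XLOC_002240 and XLOC_016275); points are libraries, lines are the mean of the log values of the 3 libraries of a group, and colours are the 5 groups. XLOC_005607 is above 469 FPKM in all 6 control B and cisplatin libraries and between 17.2 and 470.6 FPKM in the other groups.

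Members lay near another member more often than the other eligible loci did. Of the 150 members, 62 (41.3%) had another member within 50 kb on the same scaffold, against 928 of the 12866 other eligible loci (7.21%), and 23 (15.3%) had a member as the adjacent locus, against 1.07%. Of the 37 pairs of members within 50 kb that did not overlap, 26 (70.3%) shared a module and the median r was 0.900. For the 11135 pairs on different scaffolds, 22.4% shared a module and the median r was 0.243. Another 3 pairs overlapped: XLOC_003453 with XLOC_003454, XLOC_003511 with XLOC_003512, and XLOC_007125 with XLOC_007128. The loci of each of these pairs are listed with the same interval, and their reads cannot be told apart here. Whether other neighbours are copies that share reads was not tested. Nearness did not always mean likeness: XLOC_003450 lay 11196 bp from XLOC_003453 and the r of their deviations was -0.46.

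The longest run of adjacent members held 3 loci of module 4 on scaffold03051. These were XLOC_017153 (26320 to 27532), XLOC_017154 (29641 to 32064) and XLOC_017161 (33381 to 34254), with r between 0.900 and 0.963. XLOC_017154 had 1430, 199.5 and 302.1 FPKM in control A, 400.5, 548 and 1194 with etoposide and 865, 600.5 and 484 with imatinib. It had 25.3, 4.15 and 0.978 FPKM in control B and 147, 131 and 0.974 with cisplatin. XLOC_017161 spanned 2783 FPKM in control A 1 to 7.71 in control B 3, and XLOC_017153 spanned 1552 FPKM in etoposide 3 to 2.96 in cisplatin 3. All 9 control A, etoposide and imatinib values of each of these 3 loci lay above all of its 3 control B values.

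In module 2, XLOC_005532 and XLOC_005534 lay 2848 bp apart on scaffold01203 with r = 0.897. Loci XLOC_002139 and XLOC_002146 of module 3 lay 3986 bp apart on scaffold00793 with r = 0.922. XLOC_007804 and XLOC_007805 of module 1 lay 868 bp apart on scaffold01495 with r = 0.994, while XLOC_007815 on the same scaffold, in module 4, had r of 0.270 and 0.272 with them. These pairs beyond the named loci were chosen after their values were seen.

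Members were somewhat shorter and more often single-transcript loci. Their median span was 1653 bp against 2349 bp for the other eligible loci, and 104 of 150 (69.3%) held 1 transcript against 58.6%. Their median of mean levels was higher, 32.9 FPKM against 20.2. Of the members 29 (19.3%) were listed at 0 in at least 1 library, against 1.52% of the other eligible loci. A value of 0 widens the SD that chose the members, so this last share is partly set by the rule. Of the 46 members with 2 or more transcripts, 38 had a second transcript of at least 1 FPKM. The top 2 transcripts moved together with r above 0.5 in 29 of these 38, and the median r was 0.881. Among these 38 the single locus with r below -0.5 was XLOC_002676, at -0.68. Where the second transcript was under 1 FPKM, XLOC_003932, XLOC_008289, XLOC_015861 and XLOC_007804 had r of -0.78, -0.65, -0.60 and -0.57. The other loci of that kind had r from -0.006 to 0.571. These loci were named after their values were seen.

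Replicate numbers in the labels were shared between groups, and members deviated alike in same-numbered libraries of control B and cisplatin. Their deviations correlated at 0.662, 0.617 and 0.673 across the 150 members for numbers 1, 2 and 3, and at 0.244, 0.215 and 0.505 across all loci tested. Loci are not independent replicates, and this is a description. The lowest library carried the same number in both groups for 111 members (74%), against 40.3% of the other eligible loci. The highest carried the same number for 58 members (38.7%), against 38.0%, and the whole order matched for 42 (28%), against 20.6%. Etoposide and imatinib shared the number of the lowest library in 90 members (60%) and of the highest in 81 (54%). Their whole order matched for 61 members (40.7%), against 20.7% of the other eligible loci. Control A and imatinib shared the number of the lowest library in 86 members (57.3%), against 27.16%. They shared that of the highest in 49 (32.7%), against 27.24%. The same-numbered correlations of members were 0.018, -0.29 and 0.454 for etoposide and imatinib. In imatinib and control B the same-numbered correlations of members were -0.28, -0.50 and -0.64. Control B and cisplatin were the only groups of the 10 possible pairings with all 3 values above 0.1.

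The control sets differed in 24 of the 150 members (16.0%), of which 22 were higher in control A and 2 lower. The call was limma's adjusted p under 0.05 over all 18098 loci tested (mean level 1 FPKM or more), of which 23.4% passed, 6.49% as higher and 16.9% as lower. The count of members was thus below the background with the values as deposited. After median centring 24 members again passed, and 16.06% of all loci did, so the shares were alike. With library weights 11 members passed where 17.8% of all loci did. When only the control libraries were fitted, 14 members and 6.54% of all loci passed, and without control A 2 these were 35 members and 19.5%. Whether members fell below the background thus depended on the setting. The test divides by the spread within groups, which chose the members: their median residual SD was 1.52 against 0.304 over all loci tested, and 45 members (30%) had an unadjusted p under 0.05 against 38.7% of all loci. The control sets were at least 2-fold apart in 86 members (57.3%) against 16.5% of all loci, with a median absolute log2 difference of 1.44 against 0.413. Means of 3 libraries can lie further apart where the spread is large, and the part of the spread in these differences was not tested. Between cisplatin and control B, where none was called, 34 members (22.7%) were at least 2-fold apart, against 2.12% of all loci. Over all loci the log2 difference had a median of -0.24, which became -0.02 once the libraries were centred on their medians. The members' split stayed at 22 and 2 after that centring, while the split of all loci went from 1175 higher and 3052 lower to 1805 and 1102.

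Of the 24 calls 12 lay in module 4, where 12 of 18 members were higher in control A and the median log2 difference was 4.16. Module 5 had 4 of 7 and module 6 had 3 of 6 members higher, module 3 had 2 of 18, and none of the 58 members of module 1 passed. The remaining calls were 1 lower member of module 2 and 1 higher and 1 lower among the 10 members outside the modules. The mean log2 level of module 4 was 7.12 ± 1.38 in control A, 7.45 ± 0.673 with etoposide and 7.44 ± 0.217 with imatinib, against 3.03 ± 1.70 in control B and 4.26 ± 2.75 with cisplatin (SD, n = 3). Control A 1, 2 and 3 had 8.70, 6.12 and 6.55, so the libraries other than control A 1 also lay above all those of control B and cisplatin. The count was 15 without control B 2, 12 without control B 3, 17 without control A 1 and 35 without control A 2, and 12 of the 24 members passed in all 15 fits that left out a library. Without the same libraries, in that order, 12.35%, 10.29%, 22.54% and 19.53% of all loci passed.

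**Figure D5:**
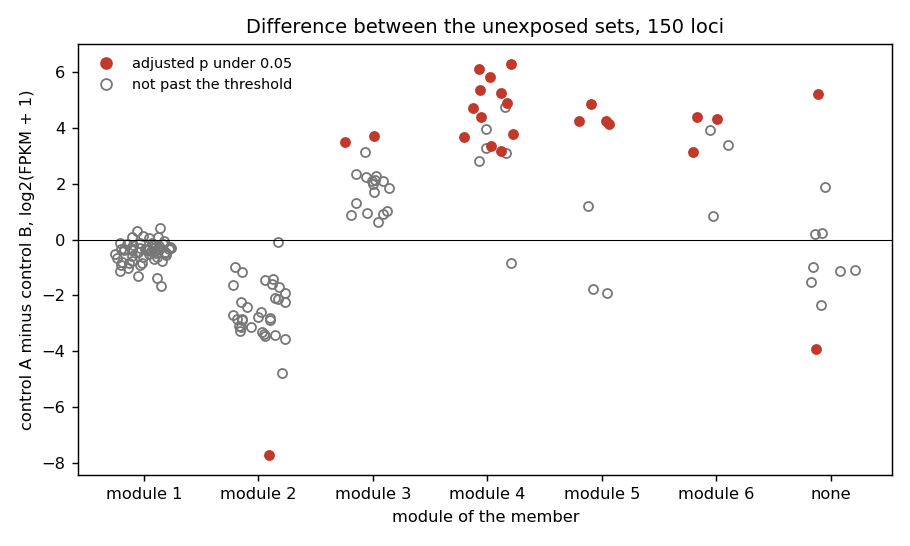
Log2 difference on the log2(FPKM + 1) scale between control A and control B (y axis, control A minus control B) of each of the 150 members, by module on the x axis; filled points passed limma's adjusted p of 0.05 and open points did not. Of the filled points 12 are in module 4 and 22 are above 0, and the 58 members of module 1 lie between -1.68 and 0.43.

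XLOC_015323 (scaffold02581, 21546 to 23521; module 4) was the member with the largest rise. It had 553, 102.6 and 113 FPKM in control A and 6.13, 0.416 and 0.321 in control B. With etoposide it had 110.1, 219 and 304 FPKM, with imatinib 299.5, 272 and 355.5, and with cisplatin 119, 70.2 and 0.553. The control sets did not overlap, and 2 of the 3 cisplatin libraries lay close to the lowest control A values while the other lay among those of control B. The log2 difference of control A from control B was 6.30 (SE 1.32; limma, adjusted p = 0.00777), and 5.52 without control A 1 (limma, adjusted p = 0.0209). With libraries weighted by their quality it was 6.13 and did not pass (limma, adjusted p = 0.0503).

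XLOC_005532 (scaffold01203, 5418 to 6063; module 2) was the member with the largest fall. It was listed at 0 in control A 1 and had 4.45 and 2.29 FPKM in control A 2 and 3, against 655, 426 and 601 in control B. With etoposide it had 81.4, 64.5 and 10.8 FPKM, with imatinib 14.1, 56.2 and 8.91, and with cisplatin 579, 360.3 and 633. Both drug groups etoposide and imatinib lay between the control sets without overlapping either, and cisplatin lay with control B. The log2 difference of control A from control B was -7.72 (SE 0.808; limma, adjusted p = 0.000586). Every alternative run for this locus kept the call, with differences of -9.07 to -7.03.

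Etoposide, imatinib and cisplatin were each compared with the same control libraries, so these comparisons are not independent of one another. No member passed against both control sets in the same direction for any drug, against 6.75% of all loci for etoposide, 3.19% for imatinib and 0% for cisplatin (limma, adjusted p under 0.05). The test divides by the spread within groups, which chose the members. Fewer calls among members than among all loci are thus partly set by the rule, here and in the drug comparisons below. Whether members responded less to a drug was not tested. Without control A 1, XLOC_008466 was lower against both sets with etoposide and with imatinib, and XLOC_018636 was lower with imatinib. Without imatinib 1, XLOC_010869 was higher with imatinib. These loci were named after their values were seen, and XLOC_008466 was listed at 0 in control A 1, etoposide 3 and imatinib 2. Against control A, 1 member passed with etoposide and 1 with imatinib, where 15.5% and 9.03% of all loci did, and 6 and 8 members (4% and 5.33%) had an unadjusted p under 0.05 against 34.1% and 27.6% of all loci. Both calls were XLOC_005532, higher by 3.93 with etoposide and by 2.97 with imatinib on the log2 scale (limma, adjusted p = 0.0188 and 0.0410). The etoposide call was lost without control A 2 or etoposide 3. The imatinib call was lost without control A 1, control A 2 or any 1 of the imatinib, control B and cisplatin libraries. Against control B the same locus was lower, by -3.79 with etoposide and -4.75 with imatinib (limma, adjusted p = 0.00531 and 0.00205).

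Against control B, 27 members passed with etoposide (18.0%; 18 higher and 9 lower), where 28.7% of all loci did (7.28% higher and 21.4% lower). With imatinib 26 did (17.3%; 19 higher and 7 lower), where 23.2% of all loci did (6.29% higher and 16.9% lower). After median centring the splits were 19 and 5 for each drug. That centring turned the split of all loci, from 1317 higher and 3876 lower to 2367 and 1947 for etoposide, and from 1139 and 3057 to 1601 and 1257 for imatinib. In module 4, 14 of 18 members were higher than control B with either drug, with median log2 differences of 4.30 and 4.24. In module 2, 7 of 33 members were lower with etoposide and 6 with imatinib. Without control A 1 the counts were 37 with etoposide and 33 with imatinib, and without control B 3 they were 12 and 11. For etoposide the count was 17 without control B 2 and 16 without etoposide 3, and for imatinib it was 13 without imatinib 3. The share of all loci is not given for these fits, nor for those that left out a library in the comparisons below. Whether the member counts only followed that share was not tested.

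With cisplatin, 13 members differed from control A (8.67%; 2 higher and 11 lower), where 21.3% of all loci did, 16.1% as higher and 5.16% as lower (limma, adjusted p under 0.05). After median centring the members were split 1 and 11, while all loci went from 2919 higher and 934 lower to 909 and 1539, so a contrast between the directions of members and of all loci depends on the scaling. The 11 lower ones held 4 of the 7 members of module 5, 3 of 18 of module 4 and 3 of 6 of module 6, and 1 outside the modules. The count was 10 without control A 1, 8 without cisplatin 1 and 3 without cisplatin 3. Against control B no member and no locus passed limma's adjusted threshold. The unadjusted p was under 0.05 for 10 members (6.67%) and 223 of all loci (1.23%), a larger share of the members. When the 6 libraries were fitted by themselves with the replicate number as a block, again none passed, with 26 members and 962 of all loci at an unadjusted p under 0.05, against 16 and 674 without the block.

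Between drugs, whose doses differed, no member and no locus passed for etoposide against imatinib (limma; 2 members and 2289 loci at an unadjusted p under 0.05). Etoposide and cisplatin differed in 14 members, 10 higher and 4 lower with etoposide, where 27.4% of all loci did (6.38% higher and 21.0% lower). Imatinib and cisplatin differed in 16, 9 higher and 7 lower with imatinib, where 22.5% did (5.53% higher and 17.0% lower). After median centring the splits were 14 and 3 for etoposide and 9 and 4 for imatinib. Over all loci they turned, to 2365 higher and 1852 lower for etoposide and to 1508 and 1123 for imatinib. The etoposide count was 22 without control A 1, 6 without etoposide 2, 9 without etoposide 3 and 6 without cisplatin 3. The imatinib count was 22 without control A 1, 10 without imatinib 1, 6 without imatinib 3 and 6 without cisplatin 3. In module 4 the median log2 difference from control A was 0.350 with etoposide and 0.415 with imatinib. For cisplatin from control B it was 0.979, and for control A from control B 4.16. Differences of these drugs from cisplatin thus cannot be told apart from a difference between sets of libraries.

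Some members kept the groups apart in every library, but in each comparison below their share was smaller than that of all loci. Groups with a wide spread overlap more easily, and that spread chose the members. The smaller shares are thus partly set by the rule, and no conclusion is drawn from them. Control A and control B did not overlap in 40 of the 150 members, against 38.5% of all loci. Of these 40 members, 30 were higher in control A. Etoposide lay outside the range of the 6 control libraries in 1 member (12.7% of all loci did), imatinib in 2 (12.4%) and cisplatin in 3 (2.36%). For cisplatin the shares were close. The 6 loci in question were named with their values in view.

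XLOC_015979 (scaffold02738, 3385 to 16551) had 6.06, 8.45 and 0 FPKM with etoposide against 9.31 to 29.6 in the controls, and it did not pass against either set (limma, adjusted p = 0.135 and 0.161). XLOC_010261 (scaffold01815, 2417 to 7785) and XLOC_008446 (scaffold01575, 59938 to 67481), both in module 6, were above all controls with imatinib. XLOC_008446 had 921, 946 and 955 FPKM with imatinib, against 518, 82.9 and 455 in control A and 33.6, 6.39 and 9.15 in control B. The imatinib values were nearly equal to each other while those of both control sets were spread. Against control A its log2 difference was 1.797 (limma, adjusted p = 0.229), and against control B it was 6.10 (limma, adjusted p = 0.00112).

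XLOC_014802 (scaffold02502, 4695 to 6092; module 6) had 1.88e-06, 0.052 and 0.000194 FPKM with cisplatin. The controls had 265, 9.89 and 143 FPKM in set A and 170, 39.4 and 9.35 in set B, and etoposide 1 had 6.22e-05. All 3 cisplatin libraries were thus near 0 while all 6 controls were above 9 FPKM. Its log2 difference was -6.20 against control A (limma, adjusted p = 0.0263) and -5.35 against control B (limma, adjusted p = 1, unadjusted p = 0.00869). XLOC_000739 (scaffold00286, 4025 to 4933; module 5) had 0.312, 0.272 and 0.310 FPKM with cisplatin against 0.466 to 0.975 in control B and 17.2 to 99.9 in control A. XLOC_006085 (scaffold01264, 39487 to 40742; module 2) was listed at 0 in cisplatin 1 and had 0.153 and 0.177 FPKM in cisplatin 2 and 3, against 0.622 to 25.2 in the controls. The cisplatin and control B values of XLOC_000739 were all under 1 FPKM, as were the cisplatin values of XLOC_006085. Neither locus passed for cisplatin against control B by limma's adjusted threshold.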

How the data were processed

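Poly(A) RNA of whole Daphnia magna neonates was measured in 15 libraries. The deposited table holds FPKM per assembled transcript, made by the authors. Per the submitters' processing notes, Cufflinks 2.2.1, Cuffdiff, TopHat2 2.0 and Bowtie2 2.1 were used, with Trim Galore and CASAVA 1.8.0. Settings, the build and whether libraries were scaled to each other are not given in the labels or notes used here. Scaffold positions are the deposited ones with starts counted from 1. None of the locus identifiers matched the 28335 genes of the reference table, a count of 0, so no gene list could be used.

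For each locus the FPKM of its transcripts were added up and log2(FPKM + 1) was taken, a scale that understates the change of low loci. Loci averaging 1 FPKM or more (18098) were tested with limma 3.58.1 run under R 4.3.3, with 5 group means, a trended prior variance, Benjamini-Hochberg adjustment and a threshold of 0.05. The fit was tested on simulated data. All 150 members passed that filter. Correlations, components and modules used deviations from group means in Python 3.11.15 with numpy 2.4.6 and scipy 1.17.1. FPKM hold no counts, so no counting intervals are given, and the 3 libraries per group limit the precision.

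Deviations of same-numbered control B and cisplatin libraries correlated at 0.244, 0.215 and 0.505 over all loci tested. For imatinib and control B the same values were -0.384, -0.289 and -0.366. Deviations within a group cancel out, so such values are not independent. The main fit held group means only and paired no libraries. The replicate number entered only as a block. It was used in the separate fit of control B and cisplatin and in an alternative fit of all groups. That alternative also ties imatinib and control B libraries by number, which these negative values do not back.

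The members, tests and lists were chosen with earlier results of these data known. Named loci are the 5 of largest median SD, the 3 of highest mean FPKM, the 2 most like each of the 4 largest modules, the largest called rise and fall per comparison, the longest run of neighbours, 2 loci on either side of the threshold, and the 3 most like the first. Others are marked as chosen after their values were seen. Alternatives changed the pseudocount, filter, scaling, spread, library weights, number of members and libraries.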

Additional observations from a re-analysis of the deposited data

Results flagged for a closer look

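The following loci named above differed between drugs by limma's test of the difference itself, with the same control libraries behind each drug. The doses differed between the drugs. The unexposed control sets also differed at these loci. All control A values of XLOC_017153, XLOC_017154 and XLOC_017161 lay above the control B values of the same locus. At XLOC_005532 the log2 difference of control A from control B was -7.72. A difference between drugs thus cannot be told apart from a difference between sets of libraries. XLOC_017161 was higher with etoposide than with cisplatin by 3.82 on the log2 scale (limma, adjusted p = 0.0401) and higher with imatinib than with cisplatin by 3.81 (limma, adjusted p = 0.0467). XLOC_017153 on the same scaffold was higher by 4.72 with etoposide and by 4.69 with imatinib (limma, adjusted p = 0.0125 and 0.0161). XLOC_017154, between them on the scaffold, was higher with etoposide by 4.25 (limma, adjusted p = 0.0461), and with imatinib the difference of 4.23 did not pass (limma, adjusted p = 0.0536). XLOC_005532 was lower than with cisplatin by -3.67 with etoposide and by -4.64 with imatinib (limma, adjusted p = 0.00646 and 0.00256). The calls of XLOC_017153 and XLOC_005532 were kept in all 15 fits that left out a library, and cisplatin 3 was the lowest cisplatin library at XLOC_017153, XLOC_017154 and XLOC_017161.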

How the results depend on the processing

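The median r between members was 0.202 for members chosen at a mean of 20 FPKM or more, 0.177 with deviations scaled to unit SD, and 0.167 to 0.276 when a library was left out. The first component held 37.2%, 44.9%, 37.1% and 38.3% of variance at a mean of 20 FPKM, with unit SD and for 75 and 300 loci, and 40.3% to 45.9% when a library was left out. Parting the tree at 0.3 and 0.7 gave 8 and 4 modules with 129 and 145 members. The 24 members that differed between the control sets became 11 with library weights, 14 when only the control libraries were fitted, 7 of the top 75 and 72 of the top 300 loci, and 12 to 35 when a library was left out. Of all loci 17.8% passed with library weights, 6.54% with only the control libraries and 23.4% in the fit used for the top 75 and 300. The 72 of 300 lay near that last share and the 7 of 75 below it. With a library left out, the share of all loci ran from 10.3% without control B 3 to 25.2% without control A 3. The replicate block left the count at 24 for the control sets and at 0 for each drug against both sets, and XLOC_015323 and XLOC_005532 passed with it as well. Against both sets the count for imatinib was 1 among 300 loci and 0 to 2, for etoposide 0 to 1, when a library was left out. Of the 150 members, 105 remained with a pseudocount of 0.1 and 128 after quantile normalization. When a library was left out 98 to 140 remained, with 98 without control A 2 and 112 without control A 1. The cause of these shifts was not tested. The next 150 loci, the cisplatin fits of 6 libraries and the rebuilt modules were added after seeing the data. Depth limits values near 0, where 1 read can move a locus of low FPKM.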
